A study of Mus musculus with 6 samples.

Results

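The 23 genes described here encode proteins that bind actin, build the sarcomere or take part in contraction. They were chosen by annotation, but each had to differ between the groups to be listed at all, so that their differing is not itself a finding. Every protein-coding gene of the table was kept whose attached Gene Ontology terms included actin binding, muscle contraction, sarcomere or Z disc, unless it also carried a heart or blood vessel development term. These terms gave 23 of the 1492 protein-coding genes listed, after 8 genes of skeletal muscle, red cells and macrophages had been left out by name, of which 4 (Tnni2, Ank1, Slc4a1 and Aif1) carried the terms. No gene was removed by a development term, and no listed gene carried the sarcomere term itself.

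The study profiled mRNA of whole hearts from C57BL/6 mouse embryos at E11.5, 3 hearts labeled WT (the controls, littermates from the same line) and 3 hearts labeled hypomorph, from a line in which the cardiac transcription factor NKX2-5 is made in reduced amount. The methods name 2 modified alleles of the gene, Nkx2-5-gfp and the Cre allele Nkx2-5-IRES-Cre, but the labels give no alleles for either group, so any allele that the controls also carry cannot be named. The table holds only genes that passed the authors' own test with at least a 1.5-fold difference, each with the authors' means over the hearts of a group and no value per heart. Accordingly, no spread between hearts, standard error or test could be computed, and every difference below is a description of these group means.

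A sarcomere is the contractile unit of striated muscle. Actin filaments are anchored at its borders, the Z discs, and are pulled inward by myosin motors, while calcium release and ion pumps time each beat. At this stage the heart beats, has atria and ventricles, and is still assembling its myofibrils. Its outflow tract carries smooth muscle-like cells, and its chambers are filled with nucleated red cells. Outside muscle, actin is shaped by proteins that nucleate, cap, sever, bundle and recycle filaments, and short actin filaments joined by spectrin form the membrane skeleton that gives red cells their strength.

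Of the 23 genes, 14 were lower and 9 were higher in hypomorphic hearts. Among all listed protein-coding genes 58.0% were lower and 42.0% higher, so that the balance of the 23 lay near that of the table. The 14 lower genes differed by 1.51- to 2.12-fold, with a median log2 difference of -0.75 against -0.82 for all genes listed as lower. The 9 higher genes differed by 1.56- to 3.44-fold, with a median of 1.22 against 0.84 for all genes listed as higher. Of the 23, 2 were lower by at least 2-fold, Espn and Murc (8.70%, against 17.9% of all listed genes), and 6 were higher by at least 2-fold (26.1%, against 14.6% of all listed genes). Among all genes listed as lower 30.9% passed 2-fold, against 2 of the 14 here. Among all genes listed as higher 34.8% did, against 6 of the 9 here. Here and below a log2 difference is the authors' normalized mean in hypomorph minus that in control.

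**Figure D1:**
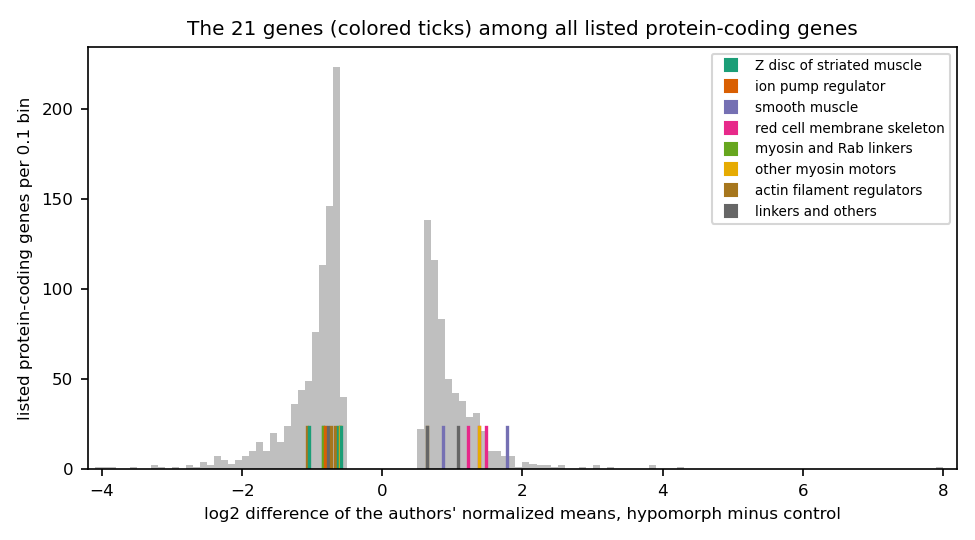
Log2 difference of the authors' normalized means (hypomorph minus control) on the horizontal axis, with the number of listed protein-coding genes per bin of 0.1 in grey and 21 of the 23 genes as ticks colored by role. The gap around 0 is the 1.5-fold limit of the table; the lower genes crowd between -1.08 and -0.59, and the higher ones spread from 0.64 to 1.78.

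The size of these differences, and the number past 1.5-fold, depended on scaling in both directions. The normalized differences lay above the log2 ratios of raw reads by a median of 0.47 over the listed protein-coding genes, a factor of 1.38 in favor of the hypomorph. On raw reads without scaling, all 14 lower genes of the 23 stayed lower by at least 1.5-fold, with 58.1% of all listed genes lower by that much, which follows from the listing because every gene listed as lower had a raw log2 ratio of -0.81 or below. On the same scale 5 of the 23 (21.7%; Add2, Spna1, Myo15, Spnb1 and Myh11) were higher by 1.5-fold, against 11.1% of all listed genes. They were 5 of the 9 listed as higher, where 26.5% of all genes listed as higher passed. Spire1, Dst, Lmod1 and 4831426I19Rik did not, with raw log2 ratios of 0.18 to 0.52. When group means were scaled to the table total, 14 genes were lower and 1 (Myh11) higher by 1.5-fold, against 867 and 57 of all listed genes. That total covers listed genes only. Leaving out globin genes moved its factor on hypomorph means from 0.775 to 0.990. When group means were scaled to the median raw ratio of the table, 0 were lower and 9 higher by 1.5-fold. Over all listed genes 150 were then lower by that much and 625 higher. That median, a log2 ratio of -1.09, lay among the genes listed as lower, so the loss of lower genes follows largely from the listing.

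**Figure D2:**
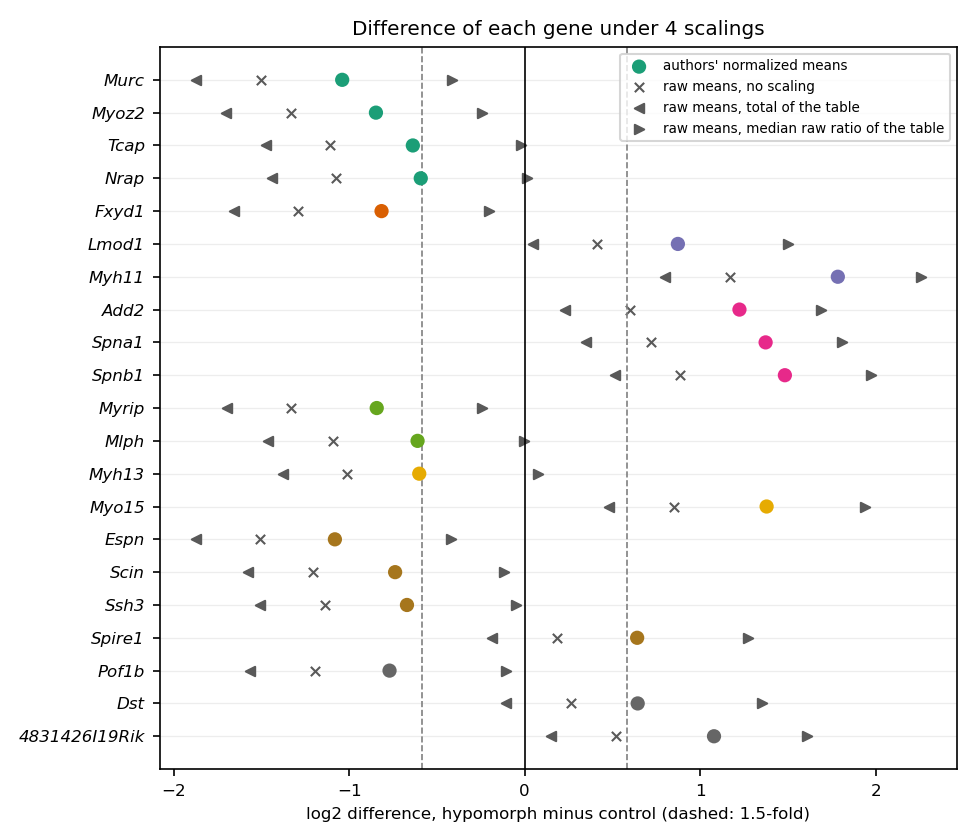
Log2 difference of 21 of the 23 genes, hypomorph minus control, from the authors' normalized means (colored circles, by role) and from raw means with no scaling (crosses), scaled to the table total (left triangles) or scaled to the median raw ratio (right triangles), with dashed lines at 1.5-fold. Without scaling, Spire1, Dst, Lmod1 and 4831426I19Rik lie between 0 and the 1.5-fold line, and only Spire1, Dst, Nrap and Myh13 have a symbol on the other side of 0 from their circle.

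Cell type markers were read from the same table. All 20 erythroid markers were listed and higher (0.83 to 1.67), 6 of 12 macrophage markers were listed and all 6 were lower (-3.59 to -0.62), and 2 of 10 cardiomyocyte markers were listed, Nppa lower (-0.66) and Myl7 higher (0.63). Of 15 skeletal muscle markers 3 were lower and 3 higher, and of 5 neural crest and neuron markers 1 was lower and 1 higher. Nkx2-5 itself was on the cardiomyocyte list and was not among the listed genes. Its level is therefore not known here, and the group labels stand unchecked by the targeted gene. In whole hearts, fewer cells of a type and less RNA per cell cannot be told apart.

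Grouped by known role, 4 genes of striated muscle (Myoz2, Tcap, Murc and Nrap) that work at the Z disc or in myofibril assembly were lower in hypomorphic hearts, although under the median raw ratio Nrap sat at 0.015, Tcap at -0.020 and none of the 4 passed 1.5-fold. The Z disc term of the table itself was attached to Myoz2, Tcap, Murc and Dst, 3 lower and 1 higher, and over all 6 listed genes with that term 3 were lower and 3 higher. Myoz2 encodes calsarcin-1, a Z-disc protein that binds alpha-actinin and the phosphatase calcineurin. It had 7771 raw reads in control and 3090 in hypomorph, a log2 difference of -0.85 and a raw ratio of 0.398 (exact 95% interval 0.381 to 0.415). Tcap encodes telethonin, the small cap that joins the ends of titin molecules in the Z disc. Its reads went from 5615 in control to 2605 in hypomorph, a log2 difference of -0.64. Nrap, a nebulin-related anchoring protein that works in myofibril assembly, had 7631 reads in control and 3626 in hypomorph (-0.59). Murc, also called Cavin4, is a muscle protein of caveolae, the small pits of the cell membrane. It was the least abundant of the 4, at 209 reads in control and 73.6 in hypomorph, with the largest difference among them (-1.04, raw ratio 0.353, exact 95% interval 0.268 to 0.464). All such intervals treat each deposited mean as a single count and cover counting error only, not the spread between hearts.

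Fxyd1 encodes phospholemman, a small membrane protein that regulates the sodium-potassium pump. It had the most reads per kb of transcript of all 23 genes, 14390 in control and 5888 in hypomorph, and its log2 difference was -0.82. Among 11 genes of calcium handling and excitation, 2 were listed and both were lower. Pln (phospholamban), the inhibitor of the sarcoplasmic calcium pump, went from 58680 to 22582 reads (-0.90), and Casq2 (cardiac calsequestrin), which binds calcium in the sarcoplasmic reticulum, from 7178 to 3390 reads (-0.61). Because both genes of a ratio are read in the same hearts, these ratios of raw means do not depend on a common factor per group. Scaling each heart on its own could change them. The reads of Myoz2 were 13.2% of those of Pln in control and 13.7% in hypomorph, and those of Fxyd1 were 15.2% and 16.2%. Nrap had 1.36 times the reads of Tcap in control and 1.39 times in hypomorph, whereas Myoz2 went from 1.38 to 1.19 times Tcap and Murc from 3.72% to 2.82% of it. Relative to Pln, reads in hypomorph were 1.21 times those in control for Tcap, 1.23 times for Nrap and 0.916 times for Murc. Every gene in these ratios was listed as lower, so ratios of similar size in both groups follow in part from the listing.

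Most core sarcomere genes were not among the listed ones. Of 39 genes for cardiac actin, myosin, troponins, titin and other sarcomere and Z-disc parts, 1 was listed, Myl7, the atrial myosin light chain. Myl7 had 176094 reads in control and 199161 in hypomorph, a log2 difference of 0.63 but a raw log2 ratio of only 0.18. Against Myl7, Myoz2 went from 4.41% to 1.55% of its reads, Tcap from 3.19% to 1.31%, Nrap from 4.33% to 1.82%, Fxyd1 from 5.07% to 1.83% and Murc from 0.118% to 0.0369%. All 5 were lower relative to Myl7, which follows from the listing, because Myl7 was listed as higher and they as lower. Against the other listed cardiomyocyte marker, Nppa (atrial natriuretic peptide, 178388 reads in control and 80838 in hypomorph), Tcap was at 3.15% in control and 3.22% in hypomorph and Nrap at 4.28% and 4.49%. Myoz2 went from 4.36% to 3.82% of Nppa, Fxyd1 from 5.00% to 4.52% and Murc from 0.117% to 0.0910%. The comparison of these 5 genes thus depended on the marker chosen. Both markers are in the table only because they themselves differed, so neither stands for cardiomyocyte RNA as a whole. The levels of the other 38 sarcomere genes were not analysed here.

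**Figure D3:**
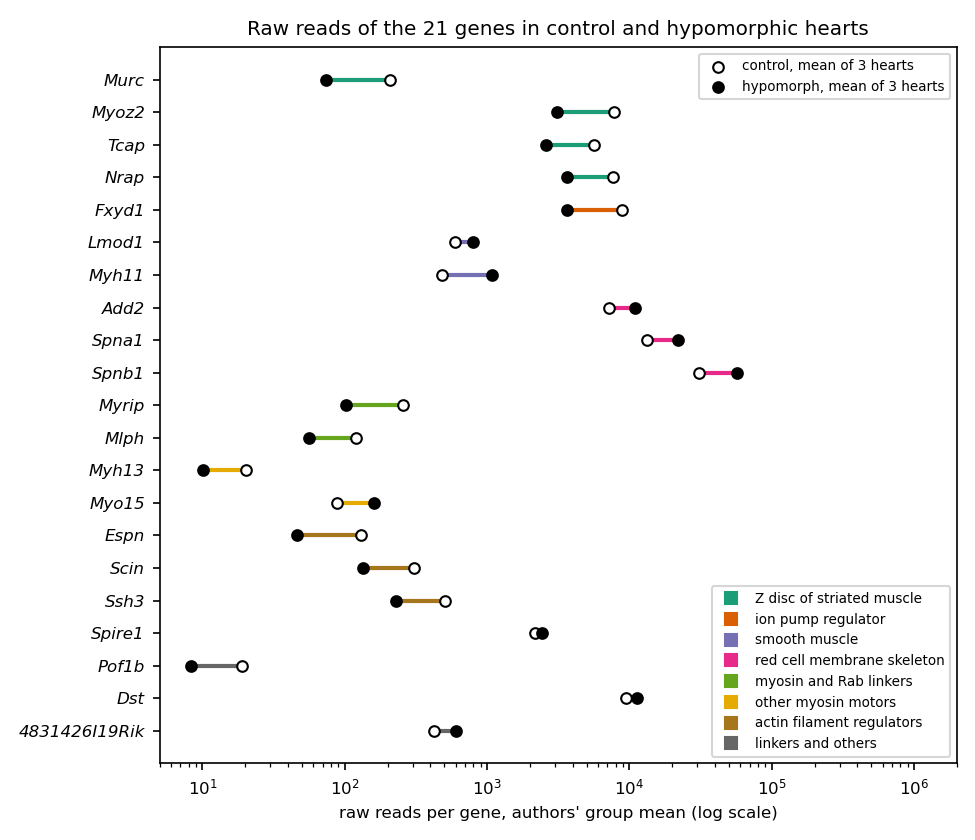
Raw reads per gene on a log axis, as the authors' mean of the 3 control hearts and of the 3 hypomorph hearts, joined by a line for 21 of the 23 genes and ordered by role. Myoz2, Tcap, Nrap and Fxyd1 sit between 2605 and 8922 reads and were lower in hypomorph, the spectrins and Add2 sit at 7239 reads or above and were higher, and Pof1b and Myh13 sit at 19.1 and 20.2 reads in control.

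The promoters shown here are those in which a search found the motif of NKX2-5 or MEF2, known regulators of heart muscle genes. Each window is the RefSeq reference sequence on GRCm38.p6 from 250 bases before to 50 bases after the annotated start, written along the gene. Capitals mark TNAAGTG, a core NKX2-5 motif, on either strand in Nrap (chr19:56389989-56390288, minus strand), Fxyd1 (chr7:31054804-31055103, minus strand), Espn (chr4:152152340-152152639, minus strand) and Mlph (chr1:90914850-90915149, plus strand), and the MEF2 box in Myoz2 (chr3:123034938-123035237, minus strand).
Nrap: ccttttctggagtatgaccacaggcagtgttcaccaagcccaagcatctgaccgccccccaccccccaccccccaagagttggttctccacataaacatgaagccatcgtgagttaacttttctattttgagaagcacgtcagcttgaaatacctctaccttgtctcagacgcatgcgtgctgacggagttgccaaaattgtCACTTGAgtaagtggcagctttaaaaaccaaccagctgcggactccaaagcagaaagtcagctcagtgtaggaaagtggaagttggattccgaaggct
Fxyd1: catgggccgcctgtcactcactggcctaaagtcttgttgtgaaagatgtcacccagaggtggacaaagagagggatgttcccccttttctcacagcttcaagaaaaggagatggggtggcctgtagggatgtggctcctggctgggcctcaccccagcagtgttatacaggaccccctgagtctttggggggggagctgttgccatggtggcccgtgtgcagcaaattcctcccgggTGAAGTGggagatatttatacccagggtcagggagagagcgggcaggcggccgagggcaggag
Espn: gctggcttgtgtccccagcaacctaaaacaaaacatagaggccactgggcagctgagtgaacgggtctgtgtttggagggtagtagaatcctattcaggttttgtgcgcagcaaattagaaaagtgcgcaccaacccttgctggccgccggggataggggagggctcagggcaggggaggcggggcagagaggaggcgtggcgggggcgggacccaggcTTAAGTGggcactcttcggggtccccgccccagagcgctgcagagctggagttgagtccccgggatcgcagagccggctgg
Mlph: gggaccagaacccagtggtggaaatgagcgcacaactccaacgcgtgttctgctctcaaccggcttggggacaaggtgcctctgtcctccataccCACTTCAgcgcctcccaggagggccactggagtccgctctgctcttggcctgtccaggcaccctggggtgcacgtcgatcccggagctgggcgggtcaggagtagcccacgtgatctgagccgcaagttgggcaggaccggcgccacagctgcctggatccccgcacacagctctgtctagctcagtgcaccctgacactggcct
Myoz2: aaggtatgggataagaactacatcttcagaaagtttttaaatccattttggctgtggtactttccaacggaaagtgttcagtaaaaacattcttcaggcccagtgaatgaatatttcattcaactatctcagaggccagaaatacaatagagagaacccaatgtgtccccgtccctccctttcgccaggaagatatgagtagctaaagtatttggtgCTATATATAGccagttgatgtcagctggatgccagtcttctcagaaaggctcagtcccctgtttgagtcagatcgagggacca
Counted from the annotated start, the NKX2-5 motif lay at -48 to -42 in Nrap, -13 to -7 in Fxyd1, -31 to -25 in Espn and -155 to -149 in Mlph, and the MEF2 box of Myoz2 at -33 to -24. Another window of Espn (chr4:152136276-152136575) also held the NKX2-5 motif. The match in Nrap and in Mlph was on the opposite strand.

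Windows were used for 17 of the 23 genes. Any window on chromosome 18, where Spire1 lies, was left out for the 23 genes but not for the shares of all genes. The NKX2-5 motif TNAAGTG was present in 4 of the 17 (Nrap, Fxyd1, Espn and Mlph), of which 11 were lower in hypomorph as these 4 were, and in 13.1% of all genes with a window. TGACAG, a motif of MEIS factors, was present in 5 of 17 (Espn, Fxyd1, Scin, Lmod1 and 4831426I19Rik) and in 21.6% of all genes. The GATA motif AGATAA was present in 4831426I19Rik alone and TGATAA in Dst alone, against 12.7% and 10.4% of all genes. CCNCNCCC, a motif of KLF factors that overlaps itself in repeats, was present in 12 of 17 and in 51.9% of all genes. The CArG box, bound by serum response factor, was found in Myh13 (1.81% of all genes), and the MEF2 box in Myoz2 (3.70%). These letter matches, searched on both strands, are a description of the windows and not of binding.

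Both smooth muscle genes were higher in hypomorphic hearts. Myh11 encodes the smooth muscle myosin heavy chain. It went from 482 reads in control to 1082 in hypomorph, the largest difference of the 23 genes at 1.78, with a raw ratio of 2.25 (exact 95% interval 2.01 to 2.50). Lmod1 encodes leiomodin 1, which starts new actin filaments in smooth muscle. It went from 593 to 790 reads, with a log2 difference of 0.87 and a raw log2 ratio of 0.41, under 1.5-fold without scaling. The reads of Myh11 were 0.812 times those of Lmod1 in control and 1.37 times in hypomorph, so Myh11 differed by more than Lmod1 under any common scale factor. Of 5 smooth muscle markers these 2 were the listed ones. A further list of 14 genes linked to smooth muscle contraction shared Acta2, Cnn1 and Tagln with these markers. From it 1 gene was listed, Pln, which the heart also expresses strongly and which was lower.

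The 3 genes of the red cell membrane skeleton were higher and had many reads. Spna1 (alpha-spectrin) and Spnb1 (beta-spectrin) form the long flexible rods of the red cell skeleton, and Add2 (beta-adducin) caps the actin filaments at their junctions. Spnb1 went from 30658 reads in control to 56644 in hypomorph (log2 difference 1.48, raw ratio 1.85, exact 95% interval 1.82 to 1.87). Spna1 went from 13343 to 21959 reads (1.37, raw ratio 1.65) and Add2 from 7239 to 10977 reads (1.22, raw ratio 1.52). All 3 remained higher under each scaling tried, though when the groups were scaled to the table total their differences were 0.23 to 0.52 and under 1.5-fold. These genes are themselves on the erythroid list, and the other 17 genes of that list had 1.48 times the summed raw reads in hypomorph. Within a group, the reads of Spna1 were 12.1% of those of Slc4a1 (band 3, the anion exchanger of the red cell membrane) in control and 12.7% in hypomorph. Add2 was at 6.57% and 6.33% of Slc4a1, whereas Spnb1 was at 27.8% in control and 32.7% in hypomorph. Slc4a1 was itself listed as higher (1.30), as these 3 genes were, so ratios of similar size follow in part from the listing. The share of the differences that came with red cell content was not tested.

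The reference windows of Spnb1 (Sptb in RefSeq, chr12:76710498-76710797, minus strand) and Add2 (chr6:86028431-86028730, plus strand), again on GRCm38.p6, are shown with the KLF motif CCNCNCCC in capitals, since KLF1 is a known regulator of red cell genes. Neither held the GATA motifs searched, and overlapping matches run together.
Spnb1: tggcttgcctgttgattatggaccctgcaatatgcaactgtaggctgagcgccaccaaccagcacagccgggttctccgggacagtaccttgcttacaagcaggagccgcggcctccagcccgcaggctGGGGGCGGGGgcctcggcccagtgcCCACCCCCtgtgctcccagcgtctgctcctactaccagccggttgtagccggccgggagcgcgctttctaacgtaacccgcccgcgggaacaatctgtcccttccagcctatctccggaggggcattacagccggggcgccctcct
Add2: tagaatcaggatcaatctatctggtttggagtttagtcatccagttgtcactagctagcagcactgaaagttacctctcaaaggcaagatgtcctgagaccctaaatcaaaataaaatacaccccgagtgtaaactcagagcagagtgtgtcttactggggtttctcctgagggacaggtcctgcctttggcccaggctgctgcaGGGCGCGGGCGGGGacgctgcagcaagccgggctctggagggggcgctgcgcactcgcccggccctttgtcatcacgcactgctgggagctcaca
About as many windows as not hold this motif in the genome as a whole (49.5%), so its presence in both does not set them apart.

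Both genes that tie myosin to Rab-coated vesicles were lower. Mlph (melanophilin) links Rab27a to myosin Va in melanosome transport, and Myrip links Rab27 to unconventional myosins on secretory granules. Myrip went from 257 reads in control to 102 in hypomorph (-0.84), and Mlph from 120 to 56.5 reads (-0.61), the latter within 0.01 of 0 when the groups were scaled to the median raw ratio. Mlph had 46.8% of the reads of Myrip in control and 55.2% in hypomorph. Of the remaining myosins, Myo15, the unconventional myosin of inner ear hair bundles, was higher at 88.8 reads in control and 160.0 in hypomorph (1.38, raw ratio 1.80, exact 95% interval 1.38 to 2.36). Myh13, the myosin heavy chain of extraocular muscle, was lower at 20.2 and 10.1 reads (-0.60), but its raw ratio of 0.497 had an interval of 0.209 to 1.12 and it sat at 0.078 under the median raw ratio. Myh13 lies in a row of closely related muscle myosin genes, so some of its few reads could belong to a neighbor.

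Among the regulators of actin filaments 3 were lower and Spire1 was higher, at a log2 difference that turned to -0.19 when the groups were scaled to the table total. Espn (espin), which bundles actin filaments in microvilli and hair cells, had the largest difference of the lower genes, at 131 reads in control and 46.1 in hypomorph (-1.08, raw ratio 0.352, exact 95% interval 0.245 to 0.495). Scin (scinderin), a calcium-dependent severing protein of the gelsolin family, went from 309 to 134 reads (-0.74). Ssh3 (slingshot 3), of the phosphatase family that switches on the filament-severing protein cofilin, went from 508 to 231 reads (-0.67). Spire1, a nucleator of actin filaments, went from 2155 to 2446 reads (0.64, raw log2 ratio 0.18). None of 25 other genes of actin dynamics was among the listed ones.

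The remaining genes named here all carried the actin binding term. Dst (dystonin), a giant protein that ties actin to intermediate filaments and microtubules, went from 9418 to 11292 reads (0.64), a difference that turned to -0.11 under scaling to the table total. 4831426I19Rik, whose listed alias is nesprin-3, a protein of the outer nuclear membrane, went from 425 to 609 reads (1.08, raw log2 ratio 0.52). Pof1b, an actin-binding protein of epithelial junctions, had only 19.1 and 8.33 reads (-0.77), and the interval of its raw ratio ran from 0.159 to 1.01. Of 11 epithelial markers 3 were listed and lower, Pof1b and Espn themselves and Grhl2, which went from 56.0 to 23.3 reads. Whether epithelial cells account for part of the Espn and Pof1b differences was not tested.

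By annotated function, the 18 genes with the actin binding term split into 10 lower and 8 higher, and the 3 with the muscle contraction term into Fxyd1 lower and Lmod1 and Myh11 higher. Of the 6 genes that also had the actin cytoskeleton term, 5 were lower, among them Espn, Myoz2, Myrip and Mlph, and of the 9 with the cytoskeleton term 6 were higher, among them Add2, Spna1 and Myo15, with Spire1 and Dst counted here by their normalized differences. In the whole table, 7 of 11 listed genes with the actin cytoskeleton term were lower, and 24 of 40 with the cytoskeleton term were higher.

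The 23 genes covered a wide range of levels. Per kb of the longest annotated transcript, control levels ran from 3.34 reads for Myh13 and 4.91 for Pof1b to 5923 for Tcap and 14390 for Fxyd1. Next below Tcap came Myoz2 at 3223, Spnb1 at 2950, Add2 at 2321, Spna1 at 1587 and Nrap at 1387. In hypomorph the order of these changed, with Fxyd1 at 5888, Spnb1 at 5450, Add2 at 3519, Tcap at 2748, Spna1 at 2612, Myoz2 at 1281 and Nrap at 659. Spnb1 had 3.95 times the raw reads of Myoz2 in control and 18.3 times in hypomorph. Spnb1 was listed as higher and Myoz2 as lower. The direction of this change, and of changes in order between higher and lower genes, therefore follows from the listing. Without a spread between hearts, it is not known which neighbors in these orders differ.

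**Figure D4:**
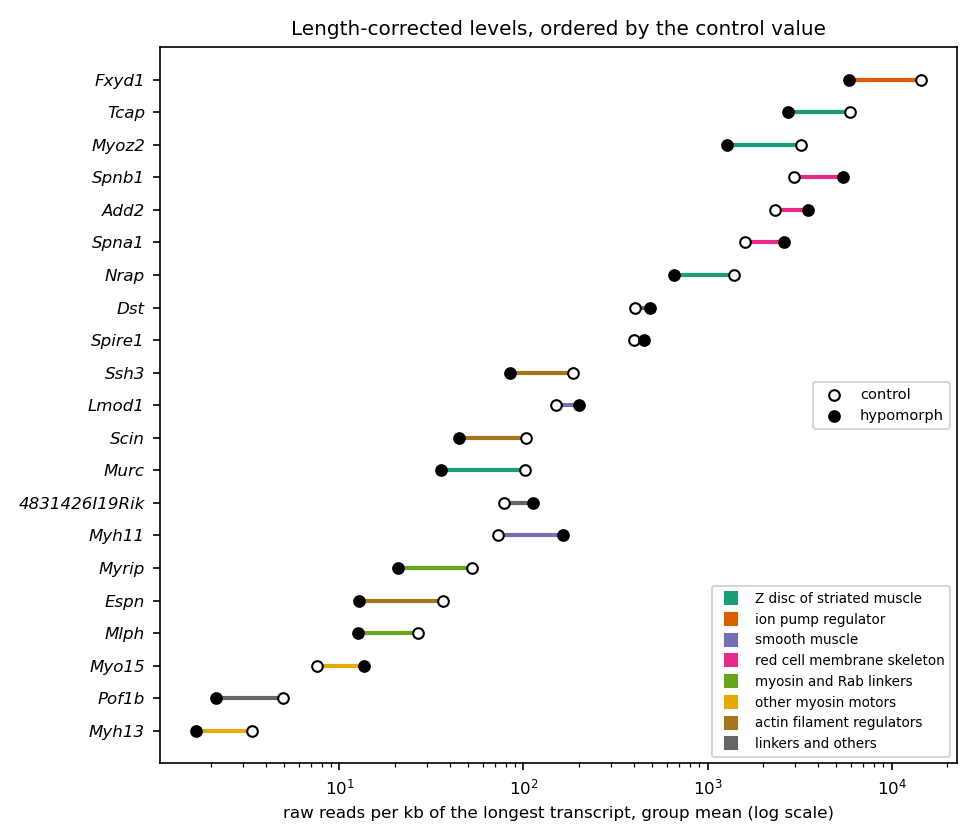
Raw reads per kb of the longest annotated transcript on a log axis, as the authors' group mean in control (open circles) and hypomorph (filled circles), for 21 of the 23 genes ordered by their control level and with the joining line colored by role. Control levels run from 3.34 reads per kb for Myh13 to 14390 for Fxyd1, and Spnb1, Add2 and Spna1 move up where Tcap, Myoz2 and Nrap move down.

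At these depths, the interval of the raw ratio held 1 for Pof1b and Myh13 and did not for the other 21 genes. When each mean is multiplied by the 3 hearts behind it, it did not hold 1 for any of the 23. Higher genes had more reads than lower ones, with a median in the higher group of 2446 reads against 253, as in the table as a whole, where the medians were 513 and 142.

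The distance between the normalized and the raw difference was nearly the same for most of the genes. After the median factor was taken off, 19 of the 23 lay within 0.1 of 0, where 79.2% of listed genes did. The other 4 were Spna1 (0.19), Add2 (0.15), Myh11 (0.15) and Spnb1 (0.13), each with a normalized difference larger than its raw reads and the common factor give, as for 11.7% of listed genes. Of the 20 erythroid markers 19 departed upward by more than 0.1, including these 3 membrane skeleton genes, while Myh11 is not on that list. The sources do not say how the normalized means were averaged, and how this spread arose was not tested.

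**Figure D5:**
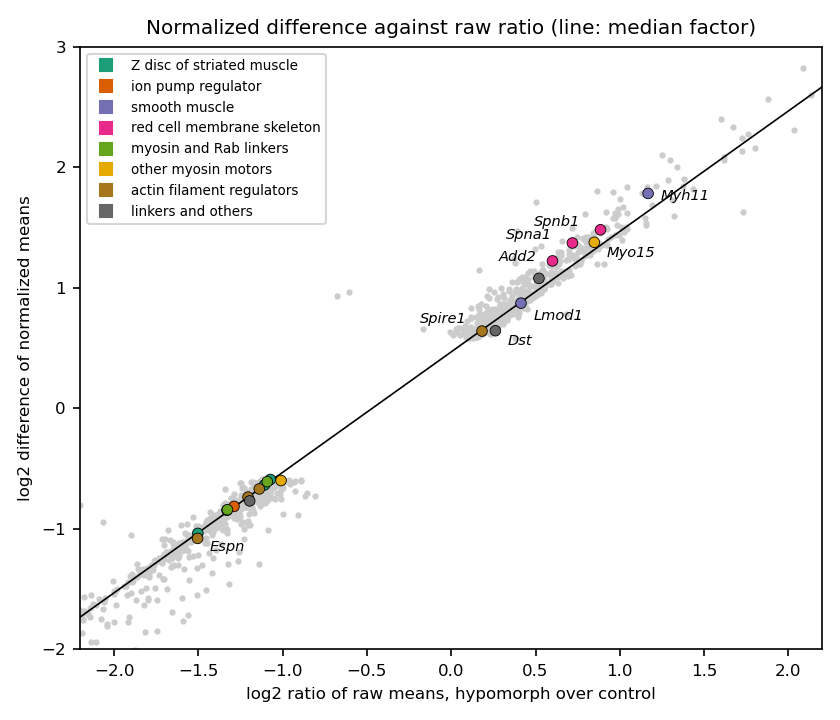
Log2 difference of the authors' normalized means against the log2 ratio of their raw means, with 21 of the 23 genes as circles colored by role, the listed protein-coding genes inside the plotted range as grey dots, and a line at the median factor (0.47 above equality). Spna1, Add2, Myh11 and Spnb1 lie more than 0.1 above the line, and the other 17 genes drawn lie within 0.1 of it.

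On the mm9 build of the mouse genome, the genes lay on 13 chromosomes. Myoz2 spanned chr3:122709124-122737908, Tcap chr11:98245125-98246267, Nrap chr19:56394525-56464527, Murc chr4:48676386-48686374 and Fxyd1 chr7:31836700-31840675. Myh11 spanned chr16:14194620-14291501, Lmod1 chr1:137221384-137264642, Spna1 chr1:176102907-176178581, Spnb1 chr12:77681475-77811534, Add2 chr6:86028078-86069549 and Espn chr4:151494440-151526480. Exons of Nrap overlapped those of Habp2 on the opposite strand over 268 bases, 4.87% of its exon length, and those of Dst overlapped the noncoding gene Gm16750 over 769 bases (2.58%). Since the counting is not stated to use strand, reads from those stretches cannot be assigned to 1 gene.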

How the data were processed

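RNA from whole E11.5 hearts (3 control, 3 hypomorph) was made into TruSeq libraries, sequenced on an Illumina Genome Analyzer IIx and aligned to mm9 with TopHat by the authors, with CASAVA 1.4 also named in the submitters' processing notes. Reads were counted on RefSeq genes, and the authors deposited group means as raw estimated counts per gene and as normalized log2 values relative to a baseline per gene. How they were normalized and averaged is not given in the sources used here. Only genes past the authors' own test and a fold of 1.5 are in the table, and its fold change columns were not used. The depth per heart is unknown.

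Differences, raw ratios with exact (Clopper-Pearson) 95% intervals, ratios within a group and reads per kb (GENCODE M1 models on mm9) were computed in Python 3.11.15 with pandas 2.3.3 and scipy 1.17.1, after the scripts had been tested on simulated data. Motifs were searched in RefSeq promoter windows on GRCm38.p6. Of the 23 genes that met the rule, 21 were named and drawn; the other 2 are in the counts but are not reported here. Genes of the marker and pathway lists were named where a result turned on them. The genes, lists and gene pairs were chosen with earlier results of these data known. Other scalings, read minimums, fold limits and annotation terms were tried as alternatives.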

Additional observations from a re-analysis of the deposited data

How the results depend on the processing

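The table holds no value per heart, so no heart could be left out, and error between hearts is unknown. No paired analysis was possible because both columns are means over hearts and carry no replicate number. The number of higher genes, 9, became 5 without scaling, 1 when group means were scaled to the table total and 5 when they were scaled to that total without globin genes. The number of lower genes, 14, became 0 under the median raw ratio of the table and 2 at a fold of at least 2. The 0 follows largely from the listing, since that median lay among the genes listed as lower. With the contraction, sarcomere and Z disc terms but without actin binding, 4 genes were lower and 1 was higher. Both counts stayed within 1.5 times under read minimums of 50 (12 lower, 9 higher) and 100 (11 and 9), actin binding alone (10 and 8), the median factor (13 and 9), and without the genes on other cell type lists (11 and 6). Spire1 (-0.19) and Dst (-0.11) turned lower under the table total, and Myh13 (0.078) and Nrap (0.015) turned higher under the median raw ratio. Of 115 values of single genes under 5 scalings, 84 kept their direction and 1.5-fold call, 27 kept their direction alone and 4 reversed. The scale factors on hypomorph means were 1.38, 0.775, 0.990 and 2.13 for the median factor, the total, the total without globins and the median ratio.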
